A study of Saccharomyces cerevisiae with 17 samples.

Results

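The subject is the nuclear-encoded machinery of oxidative phosphorylation in the budding yeast Saccharomyces cerevisiae, a set of 36 genes for subunits of the respiratory chain and of the ATP synthase. Its members were taken from a gene list and not by a cut on measured values, but earlier results of these data were known when they were chosen. Each gene was represented by 1 probe set, the one with the highest mean log2 signal where several were annotated to it. All 36 genes were found among the 5656 genes on the array. They comprised 3 NADH dehydrogenases, 4 subunits of complex II, 9 of complex III, 8 of complex IV and 12 of the ATP synthase. The members lie on 12 chromosomes, and 0 pairs of them are neighbours in the R64 gene order.

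Yeast has no proton-pumping complex I. Single-protein NADH dehydrogenases and succinate dehydrogenase (complex II) pass electrons to ubiquinone, the cytochrome bc1 complex (complex III) passes them to cytochrome c, and cytochrome c oxidase (complex IV) hands them to oxygen. The ATP synthase uses the proton gradient built by complexes III and IV, and without that gradient it can run in reverse and hydrolyse ATP. Glucose represses most of these genes, and the HAP transcription factors together with heme, which needs oxygen for its synthesis, activate them. All cultures of the series were anaerobic, so none had oxygen as a final electron acceptor.

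All arrays carried RNA of CEN.PK113-7D, a haploid prototrophic strain with the genotype MATa MAL2-8C SUC2. It was grown in glucose-limited chemostats (continuous cultures) kept without oxygen at a dilution rate of 0.03 per h, and the whole culture was sampled. Independent duplicate cultures at constant temperature gave the groups SS_12 (12 °C) and SS_30 (30 °C). Further duplicate cultures went through a diurnal temperature cycle, in which it followed a sine between 30 and 12 °C with a period of 24 h. Their groups were DTC_30 (30 °C, hour 0), DTC_21_decreasing (21 °C, hour 6), DTC_14.6 (14.6 °C, hour 9), DTC_12 (12 °C, hour 12), DTC_21_increasing (21 °C, hour 18) and DTC_27.4 (27.4 °C, hour 21).

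All 8 groups entered the tests with 2 arrays. The array numbered 3 at 27.4 °C was kept out, because an analytical duplicate was taken at that point and the labels do not say which array it is. Whether the 2 arrays kept at 27.4 °C come from different cultures is therefore not known. Cycle samples came from 2 cultures that were sampled repeatedly, so arrays of different cycle points share cultures and the p-values treat them as independent. Values are log2 of the array signal, which is relative to each array's total. Fewer cells with a transcript and less of it per cell cannot be told apart, and neither can a change in the total messenger RNA of the culture be seen. Replicate arrays correlated at 0.956 to 0.984 over all genes. The signal ratio between the end and the start of the ACT1 transcript, a measure of RNA quality, was 1.19 and 1.37 at DTC_12 and 1.16 and 1.42 at DTC_30, against 1.16 to 1.82 over all arrays. The same ratio for SPT15 varied more, from 1.65 to 5.67 over all arrays, with 4.19 and 5.09 at DTC_12, 5.67 and 3.44 at DTC_30, 2.13 and 3.03 at DTC_21_decreasing and 4.25 and 2.01 at DTC_21_increasing. The part of RNA quality in the members' changes was not tested. Of the 36 members, 35 lay above the array background (log2 3.39) on all 17 arrays. QCR8 lay above it on 15 arrays and under it on 1 array each of SS_12 and DTC_12.

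The transcripts of nearly the whole machinery fell together at the cold point of the cycle and came back in the first 6 h of rewarming. Between DTC_12 and DTC_30, 35 of the 36 members were lower at a Benjamini-Hochberg adjusted p under 0.05 in limma and 0 were higher. Over all genes, 16.3% were lower and 16.5% higher by the same rule. In all 36 members, ATP1 included, both DTC_12 arrays lay under both DTC_30 arrays, against 29.6% of all genes. The median member changed by -2.0 on the log2 scale, against 0.05 for all genes. Between constant cultures at the same temperatures 3 members were lower and 0 higher, against 12.2% of all genes lower and 9.99% higher. The median was -0.06, against -0.01 for all genes. By complex it was 0.09 for the NADH dehydrogenases, -0.33 for complex II, -0.28 for complex III, -0.12 for complex IV and 0.07 for the ATP synthase. Arrays of SS_12 and SS_30 did not overlap in 13 members that were lower and 6 that were higher, against 1859 and 1789 of 5656 genes. The heat map of the 36 genes shows the cycling and the constant cultures array by array.

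**Figure D1:**
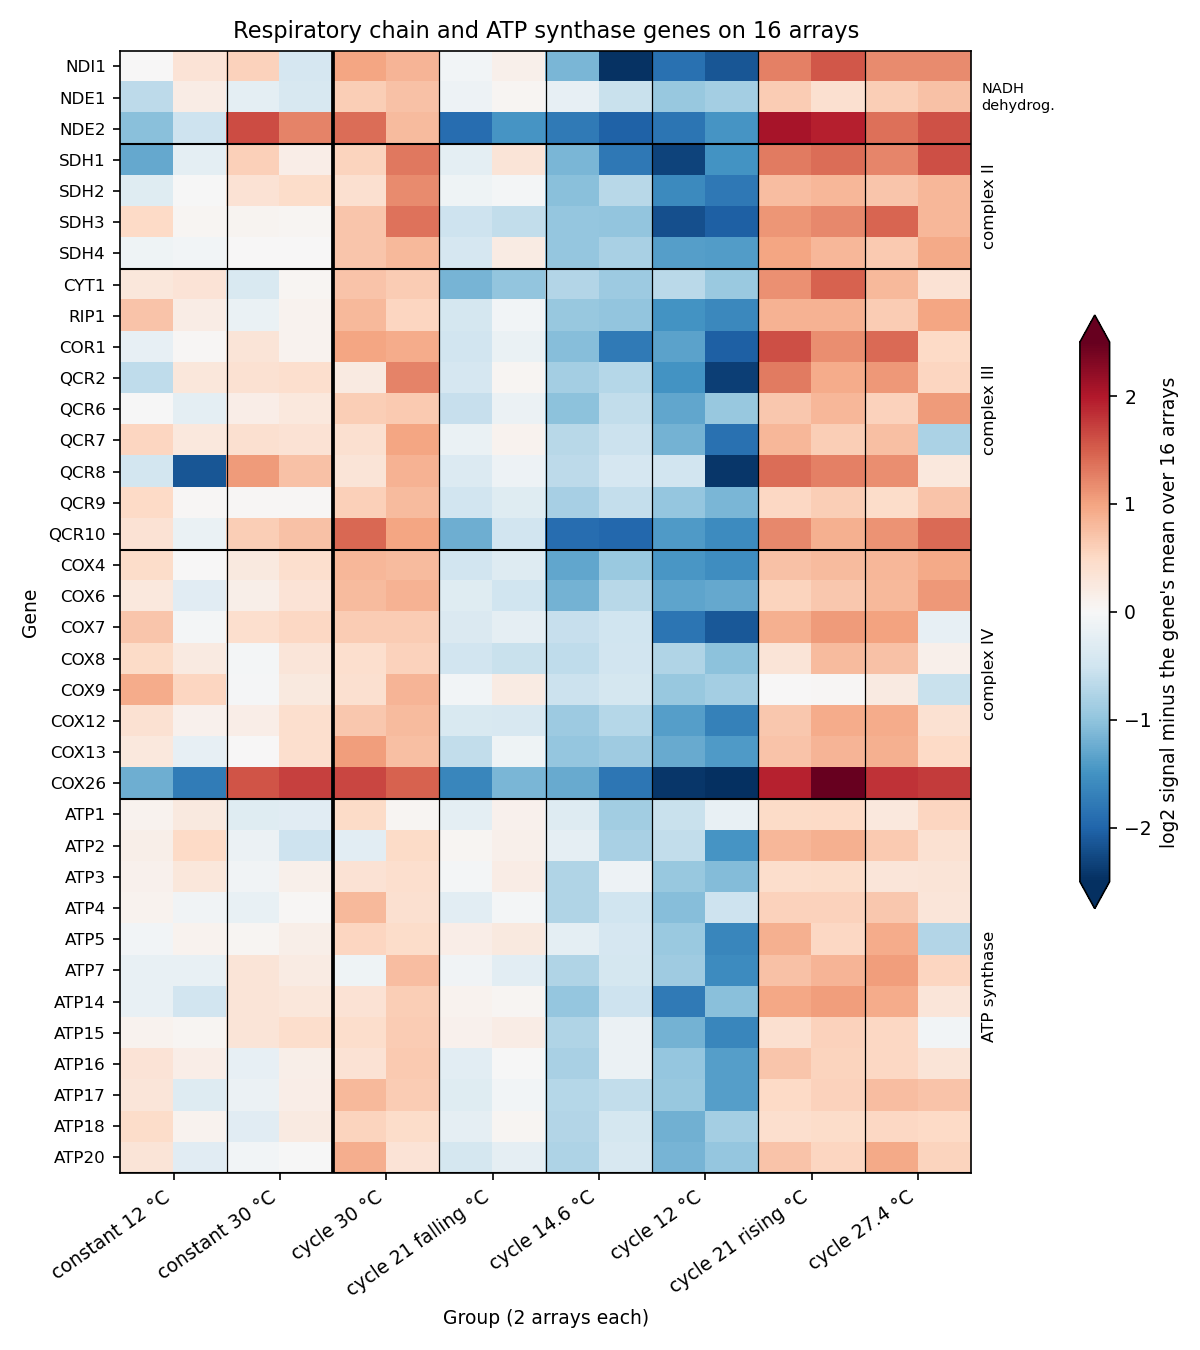
Each row is 1 of the 36 genes and each column 1 of 16 arrays, 2 per group. Colour gives the log2 signal minus the gene's mean over the 16 arrays, with the scale ending at 2.5 either way. Thin lines separate groups, the thick line separates constant from cycling cultures, and horizontal lines separate complexes. The arrays at 14.6 and 12 °C of the cycle are blue for nearly all genes, and those at 21 °C rising, 27.4 and 30 °C are red for most.

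The NADH dehydrogenases fell by a median of 2.74 on the log2 scale between DTC_30 and DTC_12, and all 3 passed the test. NDI1 encodes the internal enzyme, which oxidises NADH of the mitochondrial matrix. Its log2 signals were 9.85 and 9.72 at DTC_30 and 7.00 and 6.73 at DTC_12, and they lay between at constant temperature, with 9.45 and 8.46 at SS_30 and 8.88 and 9.21 at SS_12. The cycle groups did not overlap and the constant groups did. NDI1 changed by -2.92 ± 0.39 (standard error, SE, of the fit, 2 arrays a group; adjusted p = 0.000206) in the cycle and by 0.09 ± 0.39 (adjusted p = 0.899) between constant cultures.

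NDE1 and NDE2 encode the external enzymes, which oxidise NADH of the cytosol. NDE1 gave 8.96 and 9.06 at DTC_30, 7.38 and 7.49 at DTC_12, 8.08 and 7.94 at SS_30, and 7.68 and 8.52 at SS_12. Its change was -1.57 ± 0.26 in the cycle (adjusted p = 0.0007) and 0.09 ± 0.26 at steady state (adjusted p = 0.839). NDE2 behaved differently. It gave 7.45 and 6.83 at DTC_30, 4.23 and 4.57 at DTC_12, 7.68 and 7.29 at SS_30, and 5.00 and 5.54 at SS_12, so that it was low in the cold in both kinds of culture. It fell by 2.74 ± 0.28 in the cycle (adjusted p = 3.29e-05) and by 2.22 ± 0.28 at steady state (adjusted p = 0.000256). The difference of both NDE2 effects, -0.53 ± 0.40, did not pass (adjusted p = 0.417).

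Complex II, succinate dehydrogenase, fell by a median of 2.66, with all 4 subunits past the test. SDH3, one of the membrane anchor subunits, gave 10.61 and 11.27 at DTC_30 and 7.72 and 7.87 at DTC_12, against 9.98 and 9.97 at SS_30 and 10.40 and 9.96 at SS_12. Its fall of 3.14 ± 0.27 (adjusted p = 1.15e-05) was 8.84-fold, while the constant cultures differed by 0.21 ± 0.27 (adjusted p = 0.621). SDH1, the flavoprotein subunit, gave 9.53 and 10.31 at DTC_30, 6.68 and 7.48 at DTC_12, 9.59 and 9.16 at SS_30, and 7.71 and 8.74 at SS_12.

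SDH1 fell by 2.84 ± 0.41 in the cycle (adjusted p = 0.000321). Its steady-state change of -1.15 ± 0.41 did not pass (adjusted p = 0.0658). The arrays of the groups did not overlap, but this held in the same direction for 1859 of 5656 genes. SDH4, the other anchor subunit, had the smallest fall of the complex. It gave 11.70 and 11.82 at DTC_30, 9.63 and 9.60 at DTC_12, 11.01 and 11.01 at SS_30, and 10.90 and 10.94 at SS_12. That is a fall of 2.15 ± 0.22 in the cycle (adjusted p = 3.56e-05) beside -0.09 ± 0.22 at steady state (adjusted p = 0.806). SDH2, the iron-sulfur subunit, fell by 2.48 ± 0.25 (adjusted p = 3.29e-05).

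Complex III fell by a median of 2.22, and all 9 subunits passed, over a range of -2.70 to -1.48. QCR10, a small supernumerary subunit, was at the low end of that range. It gave 10.57 and 10.12 at DTC_30, 7.72 and 7.57 at DTC_12, 9.75 and 9.86 at SS_30, and 9.51 and 8.97 at SS_12. RIP1, the Rieske iron-sulfur protein, gave 10.94 and 10.66 at DTC_30, 8.63 and 8.52 at DTC_12, 9.96 and 10.22 at SS_30, and 10.85 and 10.31 at SS_12. RIP1 thus fell by 2.23 ± 0.24 in the cycle (adjusted p = 4.15e-05), while its steady-state change, 0.49 ± 0.24, had the other sign and did not pass (adjusted p = 0.161).

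CYT1, cytochrome c1, was at the other end of the range with a fall of 1.48 ± 0.23 (adjusted p = 0.000462). It gave 10.05 and 9.97 at DTC_30, 8.66 and 8.41 at DTC_12, 8.97 and 9.38 at SS_30, and 9.62 and 9.68 at SS_12, and its lowest cycle values were not at 12 °C (below). The core proteins COR1 and QCR2 fell by 2.66 ± 0.35 and 2.65 ± 0.40. QCR8, which binds close to cytochrome b, was the dimmest member. Its values were 5.70 and 6.25 at DTC_30, 4.90 and 2.94 at DTC_12, 6.44 and 6.10 at SS_30, and 4.91 and 3.25 at SS_12. Its falls of 2.05 ± 0.60 in the cycle (adjusted p = 0.0211) and 2.19 ± 0.60 at steady state (adjusted p = 0.022) each rest partly on 1 array under background, and each lost its call in 5 of 29 alternative analyses.

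Complex IV fell by a median of 2.25, with all 8 subunits past the test. COX26, a small subunit on the outside of the yeast enzyme, had the largest fall of the 36 members. It gave 9.06 and 8.86 at DTC_30, 4.95 and 4.02 at DTC_12, 8.97 and 9.11 at SS_30, and 6.16 and 5.64 at SS_12, so that the cold arrays of both designs lay far under the warm ones. It fell by 4.48 ± 0.35 in the cycle (adjusted p = 8.26e-06), which is 22.2-fold, and by 3.14 ± 0.35 at steady state (adjusted p = 0.000121). The difference of the COX26 effects was -1.34 ± 0.50 (adjusted p = 0.103).

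COX4, a subunit needed to assemble the enzyme, gave 10.89 and 10.85 at DTC_30, 8.60 and 8.51 at DTC_12, 10.31 and 10.50 at SS_30, and 10.52 and 10.09 at SS_12. It fell by 2.31 ± 0.21 in the cycle (adjusted p = 1.67e-05) and changed by -0.10 ± 0.21 at steady state (adjusted p = 0.774). COX8 had the smallest fall of the complex, 1.38 ± 0.25 (adjusted p = 0.00154). It gave 11.02 and 11.18 at DTC_30, 9.86 and 9.57 at DTC_12, 10.55 and 10.91 at SS_30, and 11.09 and 10.84 at SS_12. The remaining subunits COX6, COX7, COX9, COX12 and COX13 changed by -2.62 (COX7) to -1.52 (COX9).

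The ATP synthase had the smallest median of the 5 groups, -1.62, and 11 of 12 subunits passed. The exception was ATP1, the alpha subunit of the catalytic F1 head. It gave 11.08 and 10.64 at DTC_30, 10.04 and 10.41 at DTC_12, 10.29 and 10.30 at SS_30, and 10.67 and 10.84 at SS_12. The cycle groups did not overlap, but the change of -0.63 ± 0.25 (1.55-fold) did not pass (adjusted p = 0.0711). ATP2, the catalytic beta subunit, gave 10.20 and 10.94 at DTC_30, 9.84 and 8.98 at DTC_12, 10.31 and 9.94 at SS_30, and 10.60 and 10.96 at SS_12. Its fall of 1.16 ± 0.33 (adjusted p = 0.0187) lost its call in 4 of 29 alternative analyses.

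ATP15, the epsilon subunit of the central stalk, had the largest fall of the complex at 1.94 ± 0.26 (adjusted p = 0.000204). It gave 11.51 and 11.69 at DTC_30, 9.88 and 9.43 at DTC_12, 11.39 and 11.50 at SS_30, and 11.15 and 11.10 at SS_12. ATP20, subunit g, which takes part in the pairing of the enzyme into dimers, gave 8.43 and 7.87 at DTC_30, 6.35 and 6.55 at DTC_12, 7.45 and 7.51 at SS_30, and 7.84 and 7.25 at SS_12. It fell by 1.70 ± 0.27 (adjusted p = 0.000527) in the cycle and changed by 0.06 ± 0.27 at steady state (adjusted p = 0.902). The other F1 and central stalk subunits ATP3 and ATP16 fell by 1.40 and 1.68. The peripheral stalk subunits ATP4, ATP5, ATP7 and ATP14 fell by 1.40 to 1.90, and the membrane subunits ATP17 and ATP18 by 1.89 and 1.53.

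Whether the cycle's cold effect differed from the steady-state one was tested directly, as the difference of both effects. It was lower in the cycle for 28 of 36 members and higher for 0, against 6.33% of all genes lower and 6.56% higher. The median difference was -1.87, against 0.08 for all genes. By complex, 2 of 3 NADH dehydrogenases, 3 of 4 subunits of complex II, 8 of 9 of complex III, 7 of 8 of complex IV and 8 of 12 of the ATP synthase passed. The 8 members that did not were NDE2, SDH1, QCR8, COX26, ATP1, ATP5, ATP7 and ATP14. SDH3 had the largest difference, -3.35 ± 0.38 (adjusted p = 0.000579), and QCR8 the only positive one, 0.14 ± 0.85 (adjusted p = 0.933). The plot of cycle effects against steady-state effects shows the members in a vertical band, with NDE2, QCR8 and COX26 apart from it.

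**Figure D2:**
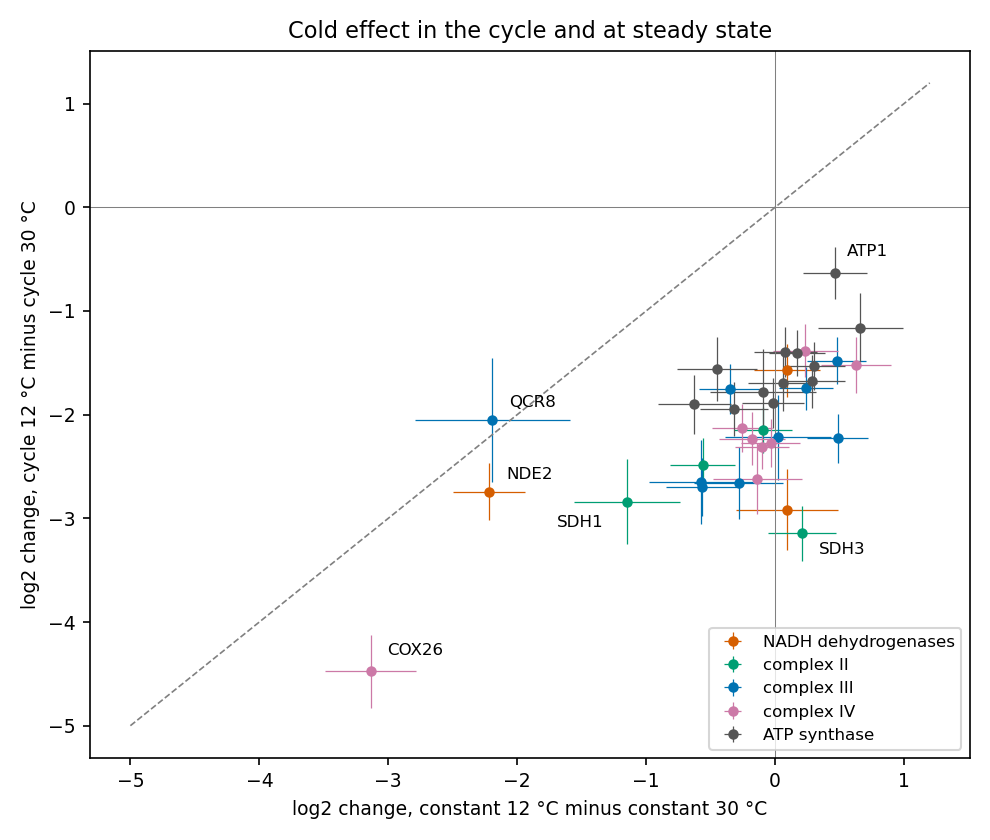
Each point is 1 gene, with its log2 change between constant 12 and 30 °C on the horizontal axis and between 12 and 30 °C of the cycle on the vertical axis. Bars are standard errors of the fit (2 arrays a group), colours mark complexes, and the dashed line marks equal effects. All points but QCR8 lie under the line, and NDE2, QCR8 and COX26 are the 3 that passed the test as lower at steady state.

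Cycling and constant cultures were then compared at each temperature. These comparisons share their arrays with those above. At 12 °C, 32 of 36 members were lower in the cycle (DTC_12 against SS_12) and 0 higher, against 9.35% of all genes lower and 8.84% higher, and the median was -1.31 against 0.01. NDE1, SDH1, QCR8 and ATP1 did not pass. Without the second DTC_12 array the count was 20, and in a fit on these 4 arrays alone it was 0.

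At 30 °C the direction was the opposite, but 0 members passed in limma in either direction, against 0.336% of all genes higher and 0.866% lower. At an unadjusted p under 0.05, 14 members were higher and 0 lower, against 5.18% of all genes higher and 6.33% lower. DTC_30 lay above SS_30 in the mean for 33 of 36 members, by a median of 0.53 against -0.05 for all genes. In 27 members both DTC_30 arrays lay above both SS_30 arrays, against 17.0% of all genes. The smallest adjusted p among the members was that of NDE1, 1.0 ± 0.26 (adjusted p = 0.0979), and SDH3 gave 0.97 ± 0.27 (adjusted p = 0.119). SS_12 lay above DTC_14.6 in the mean for 35 of 36 members (52.8% of all genes) and above DTC_21_decreasing for 27 of 36 (48.4% of all genes).

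The course of the cycle differed between cooling and rewarming. In the first cooling step, from 30 to 21 °C, 18 of 36 members fell and 0 rose, against 5.94% of all genes lower, with a median of -0.90 against 0.03. The complexes differed in how many had passed by then. It was 6 of 8 subunits of complex IV (median -1.16), 6 of 9 of complex III (median -1.0), 3 of 4 of complex II (median -0.88), 1 of 3 NADH dehydrogenases (median -0.88) and 2 of 12 of the ATP synthase (median -0.47). The 2 ATP synthase genes were ATP17 and ATP20. The count of 18 members depends on single arrays. It was 7 without the first DTC_21_decreasing array, 10 without the second, and 10 without the first DTC_30 array, and 0 in a fit on these 4 arrays alone. This step and the cold effect share the DTC_30 arrays.

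NDE2, CYT1 and COX26 had the early falls of largest size beside QCR10. NDE2 stood at 4.15 and 4.57 at DTC_21_decreasing, a fall of 2.78 ± 0.28 (adjusted p = 0.000192), and then stayed at 4.29 and 4.03 at DTC_14.6. CYT1 stood at 8.17 and 8.34 at DTC_21_decreasing, lower than its 8.66 and 8.41 at DTC_12. COX26 stood at 5.76 and 6.25 at 21 °C and at 6.12 and 5.59 at 14.6 °C. Its further change to 12 °C, -1.37 ± 0.35, did not pass (adjusted p = 0.111). As a share of the whole log2 fall from DTC_30 to DTC_12, the part reached at DTC_21_decreasing was 101% for NDE2 and 119% for CYT1, 43.2% in the median member, and 1.54% for ATP2. By complex this share had medians of 54.1% in complex IV, 48.0% in complex III, 45.1% in the NADH dehydrogenases, 37.7% in complex II and 35.7% in the ATP synthase. No test was made between complexes.

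In each of both later cooling steps 0 members passed in limma. Between 21 and 14.6 °C the median was -0.52 (all genes -0.05), and 0.424% of all genes were lower and 0.265% higher after adjustment. At an unadjusted p under 0.05, 13 members were lower and 0 higher, against 7.53% of all genes lower and 5.6% higher. Between 14.6 and 12 °C the median was -0.50 (all genes 0.05), with 0.566% of all genes lower and 0.23% higher after adjustment. At an unadjusted p under 0.05, 14 members were lower and 0 higher, against 8.36% of all genes lower and 9.94% higher. The cycle mean was lowest at DTC_12 for 32 of 36 members, against 22.6% of all genes. The plot of the complexes over the cycle shows the median course of each, without a test between complexes. All of these medians had returned to the DTC_30 level by hour 18.

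**Figure D3:**
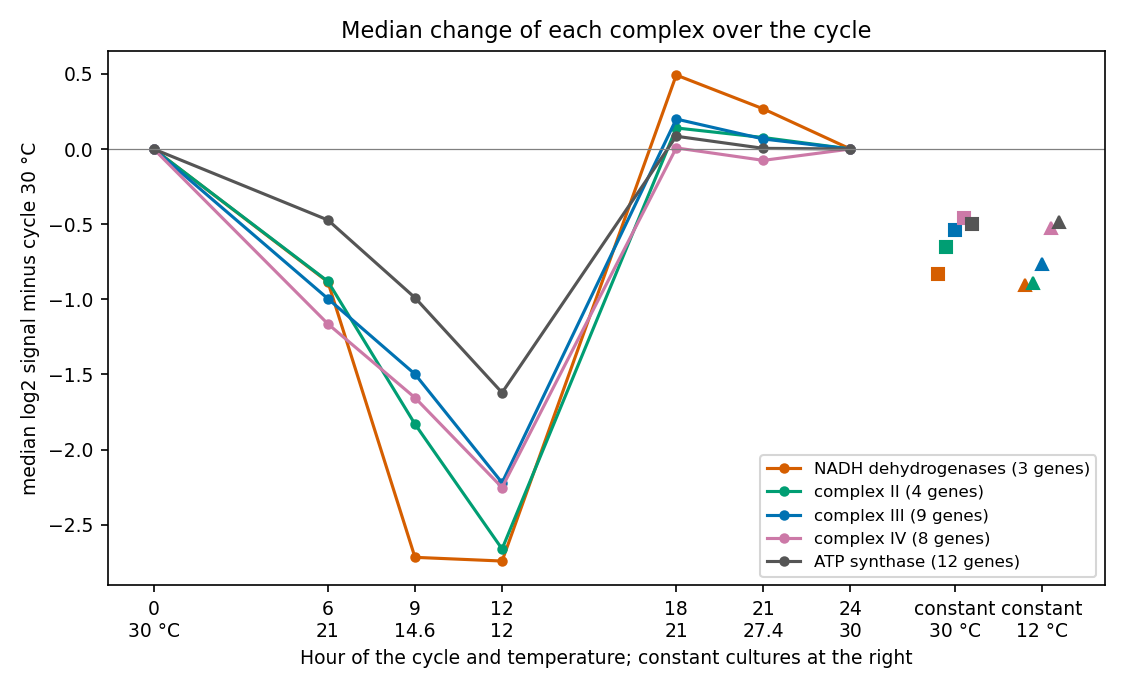
The horizontal axis gives the hour of the cycle with its temperature, and the vertical axis the median over the genes of a complex of the log2 signal minus that at DTC_30 (means of 2 arrays). Squares are constant 30 °C and triangles constant 12 °C. The ATP synthase reaches -1.62 at 12 °C and the NADH dehydrogenases -2.74, and all 5 groups are back at or above 0 at hour 18.

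In the first rewarming step, from 12 to 21 °C, all 36 members rose past the test, against 22.0% of all genes higher and 24.0% lower, with a median of 2.11 against -0.04. The rise was largest for COX26, which went to 9.31 and 10.10, a change of 5.22 ± 0.35 (adjusted p = 4.86e-07). It was smallest for ATP1, at 0.85 ± 0.25 (adjusted p = 0.0148), with COX9 next at 0.92 ± 0.27 (adjusted p = 0.0153). Medians by complex were 3.41 for the NADH dehydrogenases, 2.87 for complex II, 2.43 for complex III, 2.19 for complex IV and 1.75 for the ATP synthase, in the order NADH dehydrogenases, II, III, IV, ATP synthase. At 21 °C rising the mean of 25 of 36 members lay above that at DTC_30 (48.5% of all genes). In 13 of 36 both arrays lay above both DTC_30 arrays, against 28.6% of all genes. NDE2 was among them with 8.11 and 8.00, and so was CYT1 with 10.48 and 10.81.

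No member passed over the rest of rewarming. Between 21 and 27.4 °C 0 members passed in limma, against 3.29% of all genes lower and 6.49% higher, and the median of -0.12 became 0.05 after quantile normalization. At an unadjusted p under 0.05, 1 member was lower and 0 higher, against 9.81% of all genes lower and 14.9% higher. Between 27.4 and 30 °C 0 passed in limma with a median of -0.03, against 0.0354% of all genes higher and 0.0% lower. At an unadjusted p under 0.05, 0 members were lower and 1 higher, against 4.44% of all genes lower and 4.72% higher. The second array at 27.4 °C was low for some members. QCR7, another small subunit of complex III, gave 11.92 and 10.38, with 11.84 on the array left out, and ATP5, the stalk protein OSCP, gave 9.59 and 7.95, with 9.71 on that array.

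The same temperature on both sides of the cycle gave different levels. At 21 °C, 26 of 36 members were higher while the temperature rose than while it fell and 0 were lower, against 15.2% of all genes higher and 18.7% lower. The median was 1.02, against -0.04 for all genes. By complex, 2 of 3 NADH dehydrogenases, all 4 subunits of complex II, 7 of 9 of complex III, 7 of 8 of complex IV and 6 of 12 of the ATP synthase passed, and the medians were 1.38, 1.16, 1.31, 1.15 and 0.73. In 35 of 36 members both rising arrays lay above both falling ones, against 34.3% of all genes. The count was 13 without the first falling array, 17 and 15 without the first or second rising array, and 15 at an adjusted p under 0.01.

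COX26 differed by 3.71 ± 0.35 (adjusted p = 1.14e-05), NDE2 by 3.69 ± 0.28 (adjusted p = 2.85e-06) and CYT1 by 2.39 ± 0.23 (adjusted p = 1.14e-05). QCR10 followed with 1.89 ± 0.28 (adjusted p = 0.000302), from 7.91 and 8.66 while falling to 10.33 and 10.03 while rising. COX9, a small subunit of complex IV, was the exception. It gave 10.50 and 10.78 while the temperature fell and 10.59 and 10.60 while it rose, a difference of -0.05 ± 0.27 (adjusted p = 0.915). The NADH dehydrogenase NDE1 (0.56 ± 0.26, adjusted p = 0.114) and the complex III subunits QCR7 (0.77 ± 0.41, adjusted p = 0.174) and QCR8 (1.57 ± 0.60, adjusted p = 0.0627) also did not pass. In the ATP synthase ATP4, ATP7, ATP14, ATP16, ATP17 and ATP20 passed, with differences of 0.73 to 0.97. ATP1, ATP2, ATP3, ATP5, ATP15 and ATP18 did not, with values of 0.35 to 0.77.

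**Figure D4:**
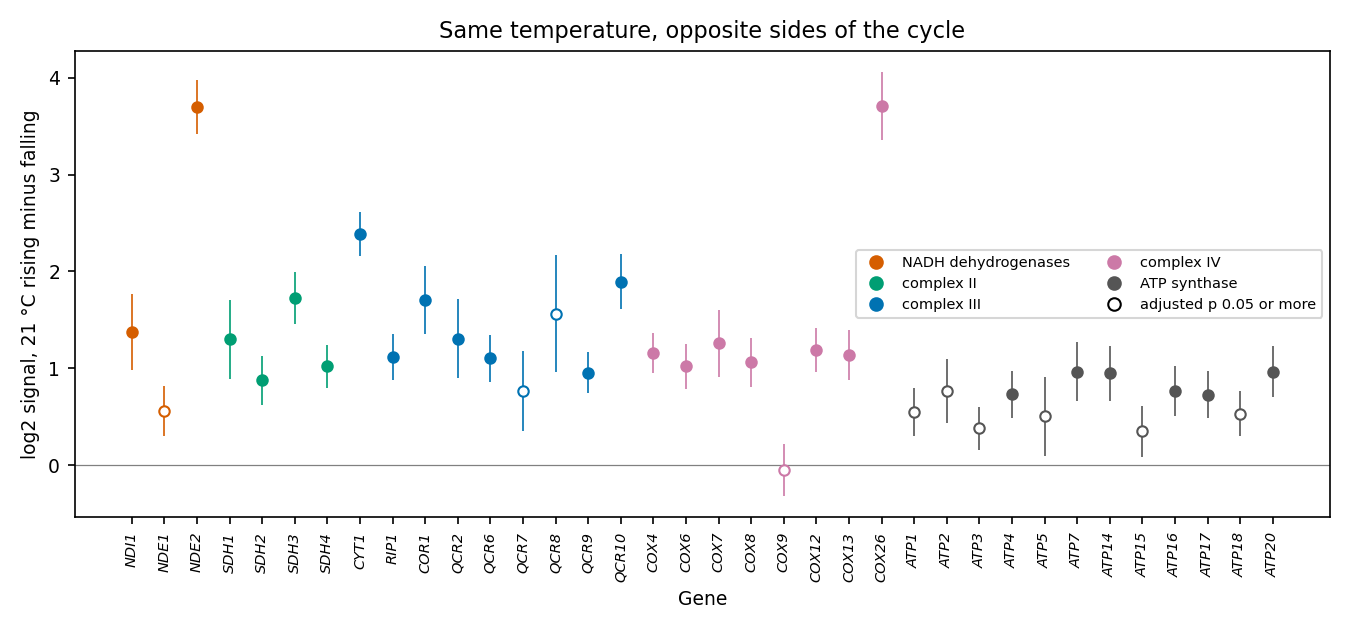
The vertical axis gives, for each of the 36 genes on the horizontal axis, the log2 signal at 21 °C with the temperature rising minus that at 21 °C with it falling, with the standard error of the fit (2 arrays a group). Colours mark complexes and open circles genes that did not pass. COX26 and NDE2 stand near 3.7, and COX9 lies at -0.05.

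A wave of 24 h fitted to the 12 cycle arrays passed for 35 of 36 members, against 43.5% of all genes. ATP5 did not pass (adjusted p = 0.0814). The amplitude, the height of the wave over its middle, had a median of 0.96 on the log2 scale, against 0.44 for all genes, and ranged from 0.46 for ATP1 to 2.29 for COX26. The fitted peak had a median of hour 22.4. It was earliest for CYT1, at hour 19.8, followed by NDE2 at hour 20.4, and latest for COX9, at hour 0.884 of the next cycle. The fitted peaks of the complexes had medians of hour 21.9 for complex III, 22.3 for the NADH dehydrogenases, 22.4 for complexes II and IV and 22.6 for the ATP synthase. A fitted peak can lie away from the highest measured cycle mean. That mean was at hour 18 for 22 of 36 members, at hour 21 for 8 and at hour 0 for 6, counts given without a share of all genes. The plot of single genes shows the main shapes.

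**Figure D5:**
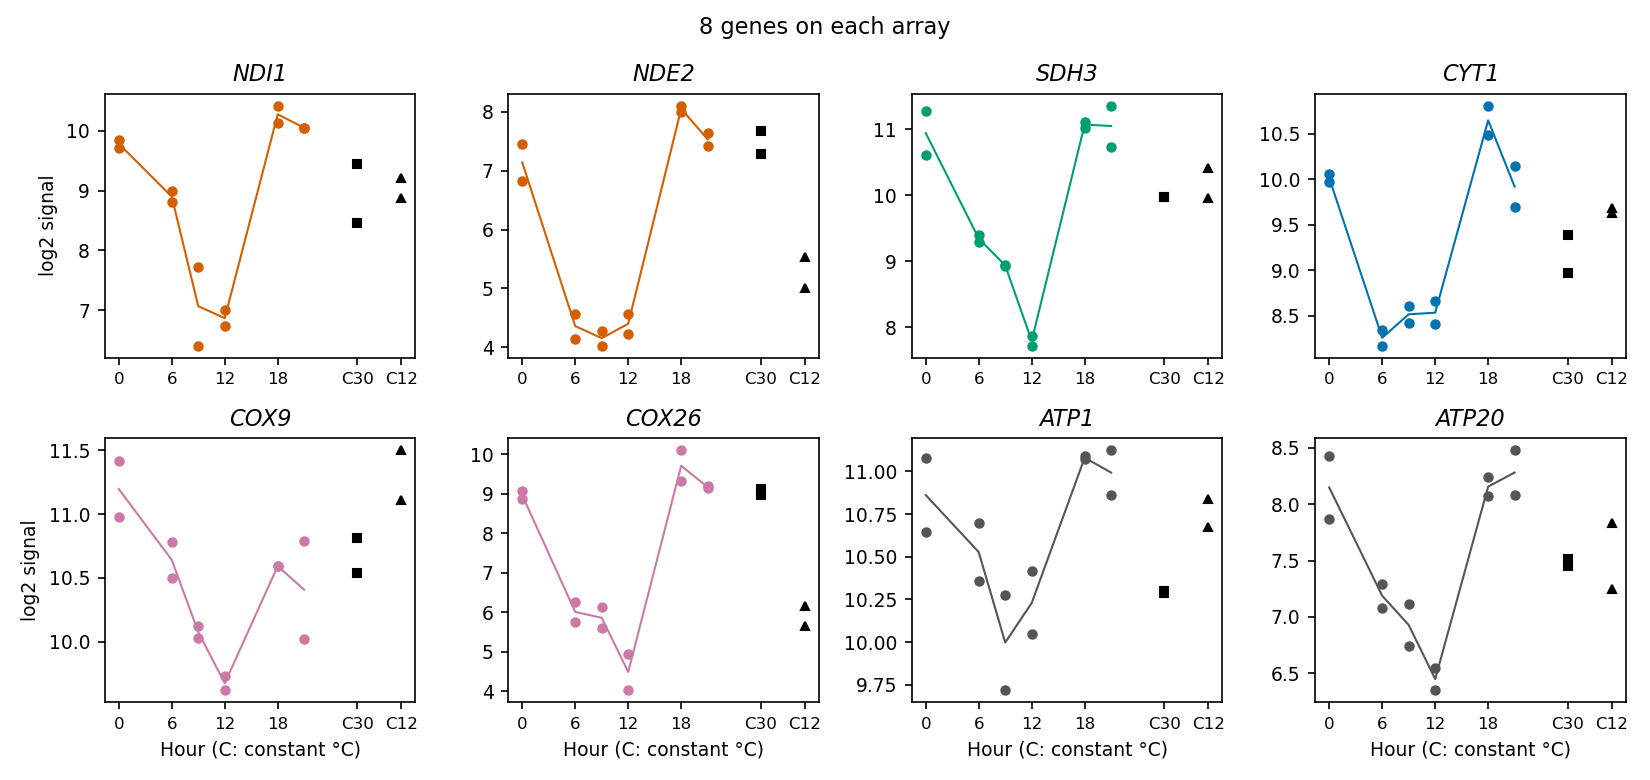
Each panel shows 1 gene, with points for single arrays, a line through the means of 2 arrays over the hours of the cycle, squares for constant 30 °C (C30) and triangles for constant 12 °C (C12). The vertical axes are log2 signal, with a scale of their own in each panel. NDE2 and COX26 are low at 21 °C falling and at constant 12 °C, CYT1 is lowest at hour 6, COX9 does not regain its level at hour 18, and ATP1 spans the smallest range.

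Other genes of the pathway were read from lists, whose counts in the cycle cold stand against 16.3% of all genes lower and 16.5% higher. A list of cytochrome c genes, further complex IV and ATP synthase subunits and ATP synthase regulators gave 7 of 9 lower and 0 higher at DTC_12 against DTC_30, with a median of -2.17. The gene of cytochrome c iso-1, CYC1, gave 10.15 and 10.93 at DTC_30 and 7.62 and 7.31 at DTC_12, a fall of 3.07 ± 0.28 (adjusted p = 1.81e-05). The complex IV subunit V has an aerobic form, COX5A, and a form known for oxygen-poor growth, COX5B. COX5A fell by 2.82 ± 0.21 (adjusted p = 7.48e-06), while COX5B changed by 0.01 ± 0.27 (adjusted p = 0.979). Between the sides of the cycle at 21 °C COX5B was higher while the temperature rose, by 1.81 ± 0.27 (adjusted p = 0.000317). The other cytochrome c gene, CYC7, named after its values were seen, did not stay level in the cycle cold as COX5B did. It gave 8.81 and 9.03 at DTC_30 and 7.54 and 7.02 at DTC_12. At 21 °C it gave 7.11 and 7.51 while the temperature fell and 11.04 and 11.13 while it rose.

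The paralogs of complex II subunits, SHH3, SHH4 and SDH9, are close copies of SDH3, SDH4 and SDH1, and copies can share signal on an array. In this list 2 of 3 were lower in the cycle cold, and SHH3 fell by 2.57 ± 0.32 (adjusted p = 0.000122). Unlike SDH3, SHH3 also changed at steady state, by -2.86 ± 0.32 (adjusted p = 0.000113), from 8.39 and 8.44 at SS_30 to 5.23 and 5.89 at SS_12. SDH9 fell by 1.64 ± 0.43 in the cycle (adjusted p = 0.0118, lost in 4 of 29 alternative analyses) and by 1.55 ± 0.43 at steady state (adjusted p = 0.0235).

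Subunits encoded in mitochondrial DNA gave 0 of 7 lower or higher in limma between DTC_12 and DTC_30, with a median of -0.26. At an unadjusted p under 0.05, 1 was lower and 0 higher, against 1162 lower and 1242 higher of all 5656 genes. COX1, a core subunit of complex IV, gave 11.69 and 11.99 at DTC_30 and 11.64 and 11.52 at DTC_12. OLI1, the ring subunit of the ATP synthase, gave 11.99 and 12.26 at DTC_30 and 11.85 and 12.22 at DTC_12. COB, cytochrome b, scattered between 3.15 and 8.44 over the arrays, and COX2, ATP6 and ATP8 were above background on only 3, 2 and 2 of 17 arrays. How the labelling kit, which primes at polyadenylated ends, treats mitochondrial transcripts was not tested. The genes of this list are named after their values were seen.

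Factors that assemble or express the complexes were lower in part. In the cycle cold 5 of 6 factors of complex II were lower (median -1.84), 7 of 11 of complex III (median -0.88), 17 of 26 measured of complex IV (median -0.98) and 4 of 12 of the ATP synthase (median -0.74), and 0 were higher in each list. The 5 of complex II were SDH5, SDH6, SDH7, SDH8 and TCM62, and the 4 of the ATP synthase ATP11, FMC1, AEP3 and ATP23, some named after their values were seen. SDH6, a chaperone of the iron-sulfur subunit SDH2, fell by 2.47 ± 0.29 (adjusted p = 8.66e-05). CBP4, needed for complex III, fell by 1.79 ± 0.23 (adjusted p = 0.000162). The complex IV factors COA2 and MSS2 fell by 2.54 ± 0.38 (adjusted p = 0.000366) and 2.53 ± 0.26 (adjusted p = 3.29e-05). The F1 chaperone ATP11 fell by 1.53 ± 0.20 (adjusted p = 0.000198), while at steady state it rose by 0.75 ± 0.20 (adjusted p = 0.0215). That steady-state call was lost in 7 of 29 alternative analyses.

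Of the HAP regulators, which activate respiratory genes, 3 of 5 were lower in the cycle cold, HAP3, HAP4 and HAP5, the last named after its values were seen. HAP4, the activating subunit, gave 10.43 and 9.85 at DTC_30, 7.20 and 8.02 at DTC_12, 9.64 and 9.17 at SS_30, and 9.25 and 8.95 at SS_12. It fell by 2.53 ± 0.38 in the cycle (adjusted p = 0.000373) and changed by -0.30 ± 0.38 at steady state (adjusted p = 0.613). HAP3, a DNA-binding subunit, fell by 1.65 ± 0.27 (adjusted p = 0.000765). Between rising and falling temperature at 21 °C the HAP genes did not move one way. HAP5 was higher while it rose, by 1.17 ± 0.21 (adjusted p = 0.000966), and HAP3 was lower, by -0.92 ± 0.27 (adjusted p = 0.0209), with its call lost in 7 of 29 alternative analyses. HAP4 gave 0.68 ± 0.38 (adjusted p = 0.188).

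Genes known to be induced without oxygen were read beside these results, since oxygen controls the members. On all 17 arrays the 11 genes of that list that were measured stayed above background. In the cycle cold 3 of 11 were higher and 0 lower (16.5% and 16.3% of all genes), with a median of 0.49, among them the cell wall gene DAN1 (0.90 ± 0.25, adjusted p = 0.0157) and the sterol importer AUS1 (0.79 ± 0.24, adjusted p = 0.0239). The other was HEM13, a heme synthesis gene, named after its values were seen. The calls of DAN1 and AUS1 were each lost in 5 of 29 alternative analyses. Between rising and falling temperature at 21 °C, 5 of 11 were lower and 1 higher, against 18.7% and 15.2% of all genes. The 1 was COX5B. The 5 were AAC3, ANB1, HEM13, AUS1 and TIR2, named after their values were seen. The log2 of the summed signal of the list ran from 14.3 to 14.6 at DTC_30, 15.1 to 15.3 at DTC_21_decreasing, 14.9 to 14.9 at DTC_12 and 14.8 to 14.8 at DTC_21_increasing. Their part in the members' changes was not tested.

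The strain's label was read against mating-type markers. The 6 a-specific genes lay above background on all 17 arrays, at log2 7.40 or more. Of the 4 alpha-specific genes, the pheromone gene MF(ALPHA)1 rose by 3.06 ± 0.24 in the cycle cold (adjusted p = 8.26e-06) and by 3.51 ± 0.24 at steady state (adjusted p = 2.95e-06). STE3, the receptor for a-factor, fell by 0.99 ± 0.33 in the cycle (adjusted p = 0.0388), a call lost in 12 of 29 alternative analyses. The other 2 did not pass in the cycle cold. The log2 summed signal of the alpha-specific list was 8.33 to 8.80 at DTC_30 and 10.7 to 11.1 at DTC_12, and that of the a-specific list 13.8 to 14.3 and 13.7 to 13.8. Their part in the members' changes was not tested.

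The members are short genes, with a median length of 475.5 bases against 1216.5 for all genes, and probe sets of short genes can respond differently to RNA quality. Across genes, gene length and the cycle cold effect had a Spearman rho of 0.13 over all genes and -0.04 over the members, as a description without independent replicates. With a trend on gene length removed from each array, 36 members were lower in the cycle cold and their median was -1.72.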

How the data were processed

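Total RNA of 17 samples was hybridised to Affymetrix Yeast Genome S98 arrays after target preparation with Affymetrix's IVT Express kit, per the labels' protocols. The authors deposited 1 linear intensity per probe set and array. RMA is named in the submitters' processing notes, with no version. The values reach 0 and each array has the same mean, about 240.2, once the top and bottom 2% of probe sets are left out, so how they were made stays unknown. They were used as deposited.

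Before log2 was taken, a floor of 1 was set. Of 9335 probe sets, 6504 had 1 gene in the platform annotation, 328 several, 2443 none and 60 were controls. Names, lengths and gene order come from the RefSeq R64 table, and no coordinates or sequences were used here. The background level is the 95th percentile over 28 controls. The model was limma 3.58.1 (R 4.3.3) with 1 mean per group over 16 arrays and empirical Bayes moderation, two-sided, with Benjamini-Hochberg adjustment over 5656 genes at 0.05. The wave used a cosine and a sine of 24 h. The fit was tested on simulated data.

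The members, lists, tests and alternatives were chosen with earlier results of these data known. Among genes outside the 36 members, up to 2 risen and 2 fallen genes per list of largest size past the test in the cycle cold were named, plus HAP4, CYC1, COX5A and COX5B. Alternatives were other normalizations (quantile, array medians), a floor of 12, dim genes removed, every probe set tested, a robust prior with an intensity trend, other uses of array 3 at 27.4 °C, the replicate number as a block, a trend on gene length removed, only the groups compared in the fit, an adjusted p under 0.01, at least 2-fold, and each array left out. Number of arrays limits the precision.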

Additional observations from a re-analysis of the deposited data

Results flagged for a closer look

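The cold effect of 28 members differed between the cycle and the constant cultures, by limma's test of the difference itself. The values here are the log2 change at 12 against 30 °C in the cycle minus that at steady state, and all were below 0. Among the NADH dehydrogenases the difference was -3.01 for NDI1 and -1.66 for NDE1. In complex II the difference was -1.92 for SDH2, -3.35 for SDH3 and -2.06 for SDH4. In complex III the difference was -1.96 for CYT1, -2.71 for RIP1, -2.37 for COR1, -2.07 for QCR2, -1.41 for QCR6, -2.24 for QCR7, -1.99 for QCR9 and -2.13 for QCR10. In complex IV the difference was -2.21 for COX4, -1.87 for COX6, -2.48 for COX7, -1.62 for COX8, -2.15 for COX9, -2.24 for COX12 and -2.05 for COX13. In the ATP synthase the difference was -1.82 for ATP2, -1.57 for ATP3, -1.48 for ATP4, -1.62 for ATP15, -1.97 for ATP16, -1.87 for ATP17, -1.83 for ATP18 and -1.76 for ATP20. Some calls were lost in part of the 29 alternative analyses. QCR2 lost its call in 9, QCR7 in 8, QCR6 and ATP2 in 7 each, and ATP4 in 5. COX8 and ATP15 lost theirs in 3 each, and NDE1 and ATP20 in 2 each. 

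Of 3 further probe sets of members that the comparisons did not use, 2 lay above background on all 17 arrays. The second probe set of QCR8 lay under it on all 17. A second probe set of ATP14 changed by -2.18 on the log2 scale between DTC_30 and DTC_12, beside -1.90 for the set that stood for the gene. A control probe set named for RIP1 changed by -3.13, beside -2.23. Both of these had the direction of the main set.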

How the results depend on the processing

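With 2 arrays a group and shared cultures, small changes were not detectable, so a member short of the threshold may still have changed. Centring arrays on their medians moved the median of all genes by 0.12 in the steady-state comparison, -0.17 in the difference of cold effects, 0.12 at 21 °C rising against falling and 0.11 in the first rewarming step. The members' steady-state median was -0.06, and -0.30 after quantile normalization.

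Counts of members past the test stayed within 1.5 times of the reported ones in 152 of 168 recomputed counts, single arrays left out aside, and no count turned its direction. The exceptions follow, and their causes were not tested. Lower members at steady state were 5 after quantile normalization. DTC_30 against SS_30 gave 1 higher with the length trend removed. DTC_12 against SS_12 gave 0 with only the groups compared, 21 °C rising against falling gave 15 at an adjusted p under 0.01, and the first cooling step gave 0 with only the groups compared and 9 at an adjusted p under 0.01; fewer residual degrees of freedom or a stricter limit are part of these settings. The second cooling step gave 1 with array medians centred, dim genes removed, an intensity trend, the array 3 at 27.4 °C kept, or the length trend removed. The last cooling step gave 2 with an intensity trend and 1 with arrays 2 and 3 at 27.4 °C averaged. The step from 21 to 27.4 °C gave 1 with a floor of 12, array 3 kept, or the length trend removed.

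Leaving out single arrays gave 2 to 3 members at steady state, 32 to 35 in the cycle cold, 22 to 30 for the difference, 0 to 1 for DTC_30 against SS_30, 20 to 31 for DTC_12 against SS_12, 13 to 28 for 21 °C rising against falling, 7 to 18 in the first cooling step, 0 to 1 in each later one, 34 to 36 from 12 to 21 °C, 0 to 4 from 21 to 27.4 °C, 0 to 0 from 27.4 to 30 °C and 33 to 35 for the wave. The 4 came without the first 27.4 °C array.

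Whether a sample's number marks a culture is not given in the labels; over 28 pairs of groups the deviations of same-numbered samples correlated at -0.40 to 0.49, over 0.1 in 7 pairs. With the number as a replicate block the counts were 3 at steady state, 35 in the cycle cold, 28 for the difference, 0 for DTC_30 and 30 for DTC_12 against the constant cultures, 27 for 21 °C rising against falling, 18, 0 and 0 for cooling, 36, 0 and 0 for rewarming and 34 for the wave.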

Other observations

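Of 11 genes for the synthesis of coenzyme Q, the electron carrier between the dehydrogenases and complex III, 2 were lower and 1 higher at DTC_12 against DTC_30, with a median of -0.17, against 16.3% of all genes lower and 16.5% higher. COQ5 fell by 0.90 ± 0.21 (adjusted p = 0.00623) and COQ3 by 0.67 ± 0.23 (adjusted p = 0.0423), a call that held in 13 of 29 alternative analyses. COQ8 rose by 0.92 ± 0.22 (adjusted p = 0.00741). At 21 °C, 6 of the 11 were higher while the temperature rose and 0 lower (15.2% and 18.7% of all genes), with a median of 0.93.

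Carriers that exchange ADP, ATP and phosphate over the inner membrane gave 3 of 5 lower and 0 higher in the cycle cold, MIR1, PET9 and AAC1, the last named after its values were seen. The phosphate carrier MIR1 fell by 1.36 ± 0.28 (adjusted p = 0.00275) and the main ADP/ATP carrier PET9 by 1.09 ± 0.23 (adjusted p = 0.00324). The supercomplex factor RCF1, 1 of 2 measured in its list, fell by 1.35 ± 0.21 in the cycle (adjusted p = 0.000464) and rose by 1.25 ± 0.21 at steady state (adjusted p = 0.00168). Of 4 meiosis and sporulation genes, 1 fell and 1 rose in the cycle cold. IME1, named after its values were seen, fell and was under background on both DTC_12 arrays, and SPR3 rose by 1.19 ± 0.24 (adjusted p = 0.00239).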
